A study of Homo sapiens with 12 samples.

Results

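The joint response of HT29 cells to both siRNAs against LRH-1 was measured on 8 arrays of 12 and set against the other 4, which carried RNA of cells given a luciferase siRNA. HT29 is an established human colorectal cancer line that carries a mutant p53. Each culture received 1 duplex at 5 nM, either siLRH-1 #1, siLRH-1 #2 or the control siLUC. Total RNA was taken after 24 h and read on HumanHT-12 v4 bead arrays (Illumina), with 4 arrays for each siRNA. The arrays of the LRH-1 siRNAs were chosen by their titles. Their change was the mean of siLRH-1 #1 and siLRH-1 #2, each with equal weight, minus siLUC, and is called the pooled change here. All 3 groups had the transfection reagent and a double-stranded RNA, and none was untreated. The question was which transcripts moved the same way whichever siRNA was used. Values are log2 signals that the authors quantile-normalized, so that a pooled change of 1 is a doubling of signal, and the table held 16381 probes.

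LRH-1, encoded by NR5A2, is an orphan nuclear receptor that binds DNA as a monomer, at an extended half-site, and controls genes of bile acid, cholesterol and steroid metabolism in liver, ovary and gut. In the intestinal crypt it is known to act with beta-catenin on genes of proliferation, and it has been linked to the unfolded protein response of the endoplasmic reticulum (ER) in liver. Silencing with more than 1 siRNA is used because each duplex can also lower transcripts other than its target. NR5A2 itself was not analysed here, and the values therefore hold no check of the knockdown.

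The 12 arrays had medians between 6.56 and 6.57, and 0 values were missing. Of 13 markers of colon epithelium, 11 were measured and 10 lay above the array median, from EPCAM at 13.44 down, with GPA33 at 6.26 the exception. The 3 measured fibroblast markers of 8 and the 1 measured endothelial marker of 5 lay below the median. Of 8 blood cell markers 5 were measured, and LYZ (13.70) and CD68 (7.65) lay above it. Among the 12 arrays, siLRH-1 #2 replicate 2 stood apart: 50 of its probes read at least 0.5 above every other array, against at most 1 on any other array. A probe for the 28S ribosomal RNA (RNA28SN5) also moved with the groups. Its log2 signal was 11.28, 11.07, 10.94 and 11.22 with siLUC, 11.43, 11.58, 11.46 and 11.37 with siLRH-1 #1, and 11.91, 12.35, 12.03 and 12.03 with siLRH-1 #2, and its part in the results below was not tested.

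The pooled change passed the test for 1052 probes (6.42% of 16381), of which 503 (3.07%) were higher and 549 (3.35%) lower than with siLUC. The test was limma with Benjamini-Hochberg adjustment over all probes, and the threshold for a call was an adjusted p of 0.05. Keeping to changes of the same sign with each siRNA left 956 probes, the shared response: 497 higher (3.03%) and 459 lower (2.80%). The 96 calls set aside were mostly decreases, 90 against 6 increases. With 1 probe for each of the 7331 named genes, the shared response held 352 genes that rose (4.80%) and 269 that fell (3.67%). A further 181 probes of the shared response had no gene symbol. Most members were bright, and 856 of the 956 probes had a mean signal above the median of all probes.

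The changes were small. The median fold was 1.19 among the probes that rose and 1.18 among those that fell, 385 probes changed at least 1.2-fold, and 31 changed at least 1.5-fold (16 higher and 15 lower). For 482 of the 956 probes, the 8 LRH-1 arrays all fell to 1 side of the 4 controls, a pattern found in 3.80% of all probes. With any 1 of the 12 arrays left out, between 648 and 961 probes met the same definition. The lowest 4 of these counts, 648, 653, 694 and 694, came without a siLUC array. Of the 956 probes, 455 kept the pooled call and its sign whichever array was left out. Both siRNAs were set against the same 4 controls.

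Because the pooled change is a mean, a strong change with 1 siRNA could carry a probe past the threshold, and the same-sign rule did not prevent this. Of the 956 probes, 287 (1.75% of all probes) were also called with each siRNA alone, 305 with siLRH-1 #1 only, 319 with siLRH-1 #2 only and 45 with neither. Increases made up 64.5% of the 287 probes (185 higher and 102 lower) and 46.5% of the 624 called with 1 siRNA. The direct difference between the siRNAs was called for 289 of the 956 probes, 128 with the larger change under siLRH-1 #1 and 161 under siLRH-1 #2, and for 9.94% of all probes. It was called for 39 of the 287. When a probe instead had to pass on the larger p of the siRNAs, adjusted over all probes, the shared response was 131 probes, 98 higher and 33 lower. In 602 of the 956 probes the smaller of the changes was at least 0.5 of the larger.

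Among the probes used, the lower side of the response was the more uneven. All 16 probes that rose at least 1.5-fold were called with each siRNA, whereas 3 of the 15 that fell as far were. These 3 were probes of KRT80, LPIN2 and VMA21. The study also lists RAB5B and SMARCD1 as lower in HT29 cells with both siRNAs. Neither had a named probe among the values used, and neither was among the 3. CCND3, the D-type cyclin that drives entry into S phase, was among the other 12 that fell. Its signal was 11.87, 11.43, 11.46 and 11.69 with siLUC and ran from 9.43 to 11.80 over the 8 arrays of the LRH-1 siRNAs, with a median of 10.57, and the ranges overlapped. Its pooled change was -0.96 (SE 0.11, adjusted p = 5.63e-06), made of -1.82 under siLRH-1 #1 and -0.10 under siLRH-1 #2, the latter not called (adjusted p = 0.73). The siRNAs differed (adjusted p = 6.31e-09). The dolichol kinase DOLK (-1.34 and -0.22) and DPM2, a subunit of the dolichol phosphate mannose synthase (-1.08 and -0.25), likewise passed on siLRH-1 #1, while the transcription factor MYB passed on siLRH-1 #2 (-0.21 and -1.02). None of these 3 was called with the other siRNA (adjusted p = 0.178, 0.0676 and 0.0907). They met the definition of the shared response but are set apart below from the genes called with each siRNA.

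**Figure D1:**
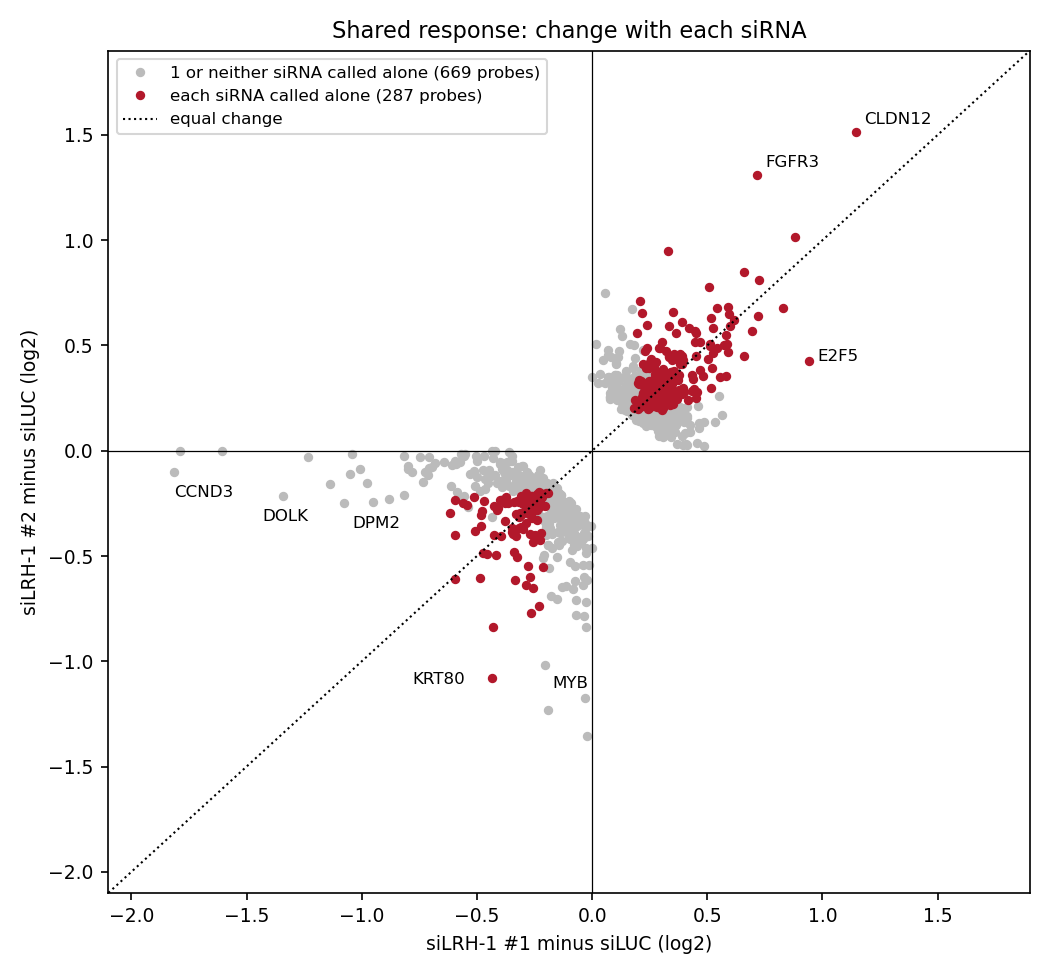
Change against siLUC with siLRH-1 #1 (horizontal axis, log2) and siLRH-1 #2 (vertical axis, log2) for the 956 probes of the shared response, 1 point a probe, with the 287 called with each siRNA in red. Points called with 1 siRNA only lie off the line of equal change in both directions, and the decreases of CCND3, DOLK, DPM2 and MYB lie near 1 of the axes.

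Of the 7331 genes, 198 were called with each siRNA by the probe used, 135 higher and 63 lower. CLDN12, a claudin of tight junctions, led those that rose. Its log2 signal was 7.78, 7.84, 7.85 and 7.61 in the siLUC arrays and 8.81 at the lowest, 9.10 at the median and 9.38 at the highest in the 8 arrays of the LRH-1 siRNAs. The groups did not overlap, and the pooled change was 1.33 (SE 0.06, 2.51-fold, adjusted p = 3.44e-12). CLDN12 rose by 1.14 with siLRH-1 #1 and by 1.51 with siLRH-1 #2, which differed (adjusted p = 0.00059). FGFR3, a receptor for fibroblast growth factors, read 8.26, 8.24, 8.07 and 8.09 with siLUC and 8.82 to 9.52 (median 9.17) with the LRH-1 siRNAs, again without overlap. It rose 2.02-fold (log2 change 1.01, SE 0.05, adjusted p = 3.96e-11), by 1.31 with siLRH-1 #2 and by 0.72 with siLRH-1 #1, a difference that passed the test (adjusted p = 4.9e-07). The other FGFR3 probe did not pass, and the mean of the FGFR3 probes rose by 0.51 (adjusted p = 2.23e-06).

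Several leading genes moved almost equally with both duplexes. HARS1, which charges histidine tRNA in the cytosol, read 9.60, 9.64, 9.69 and 9.59 with siLUC and 10.17 to 10.34 with the LRH-1 siRNAs (median 10.23). Every array of the LRH-1 siRNAs was above every control, and HARS1 rose by 0.62 with each siRNA (pooled SE 0.05, adjusted p = 1.14e-07). HDAC3, the histone deacetylase of the NCoR and SMRT co-repressor complexes, read 9.14, 9.12, 9.17 and 8.93 with siLUC and 9.53 to 9.67 (median 9.59) with the LRH-1 siRNAs. It rose by 0.50 (SE 0.05, adjusted p = 2.98e-06), with 0.51 and 0.50 for the single siRNAs. HOXB6, a homeobox factor of the posterior body axis, rose by 0.62 (adjusted p = 6.72e-07), or by 0.27 as the mean of its probes, and DPH3, which supplies electrons for diphthamide synthesis on elongation factor 2, by 0.68 (adjusted p = 4.21e-08), and both other DPH3 probes were called in the same direction. Another DPH gene, DPH5, fell by 0.33 (adjusted p = 0.000259), and these were the only called genes among 7 measured of the diphthamide list.

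E2F5, a repressor E2F of quiescent cells, rose by 0.68 (SE 0.07, adjusted p = 1.05e-06), with 0.94 under siLRH-1 #1 and 0.43 under siLRH-1 #2 (adjusted p of the difference = 8.17e-05). The engulfment adaptor GULP1 rose by 0.75 from a dim level of 6.19 to 6.34 in the controls. The decapping enzyme DCP2, which opens 5′ to 3′ decay of mRNA, rose by 0.64, CDC42SE2, which binds the small GTPase CDC42, by 0.63, and AASDHPPT, which attaches the phosphopantetheine arm to carrier proteins, by 0.55. BTG3, an antiproliferative protein, rose by 0.61 (SE 0.09, adjusted p = 0.000198) and read 10.58 on siLRH-1 #2 replicate 2 against 9.83 to 10.11 on the other 7 arrays. Without that array its change was 0.53 (adjusted p = 3.49e-06). Among all genes called with each siRNA, the 28S ribosomal RNA probe ranked with these at 0.64.

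KRT80, a keratin of epithelial cells, led the 63 genes called lower with each siRNA. RAB5B and SMARCD1, which the study lists as lower in HT29 cells with both siRNAs, had no named probe among the values used and were not ranked. The KRT80 signal was 10.19, 10.48, 10.35 and 10.22 with siLUC and 9.13 to 9.93, with a median of 9.53, with the LRH-1 siRNAs, without overlap. It fell by 0.76 (SE 0.06, adjusted p = 1.14e-07), by 0.44 with siLRH-1 #1 and by 1.08 with siLRH-1 #2. LPIN2, a phosphatidate phosphatase of triglyceride synthesis, read 8.34, 8.47, 8.36 and 8.42 against 7.51 to 8.04 (median 7.76) and fell by 0.64 (SE 0.05, adjusted p = 1.14e-07). Its change was -0.43 with siLRH-1 #1 and -0.84 with siLRH-1 #2, which differed (adjusted p = 7.28e-05). VMA21, which assembles the vacuolar proton pump in the ER, read 10.03, 9.78, 9.75 and 10.04 against 9.17 to 9.42 (median 9.29). Its decrease of 0.60 (SE 0.07, adjusted p = 4e-06) was nearly the same with each siRNA (-0.59 and -0.61).

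Lower with both siRNAs were also KCTD5, an adaptor of cullin 3 ligases (-0.50), CAPRIN2, an RNA-binding protein (-0.52), WBP1L (-0.48), CCDC9B (-0.46), C1orf116 (-0.45), COMMD9 of the Commander complex (-0.45), MSTO1, which acts in mitochondrial morphology (-0.42), the ephrin ligand EFNB2 (-0.42), FAM219B (-0.41) and the DEAH-box helicase DHX33 (-0.41). Among these, CAPRIN2 changed by -0.26 with siLRH-1 #1 and -0.77 with siLRH-1 #2, which differed (adjusted p = 1.98e-05). The siRNAs also differed for C1orf116, FAM219B and DHX33 (adjusted p = 0.000147, 0.000789 and 0.0117). GDF15, a secreted stress cytokine of the TGF-beta superfamily, fell by 0.46 (SE 0.07, adjusted p = 0.0001), by 0.62 under siLRH-1 #1 and 0.29 under siLRH-1 #2, which differed (adjusted p = 0.00663). The controls read 9.88, 9.64, 9.68 and 9.92 for this gene, and the 8 arrays of the LRH-1 siRNAs had a median of 9.38 and none above 9.57. For each of these 11 genes, all 8 arrays lay below all 4 controls.

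**Figure D2:**
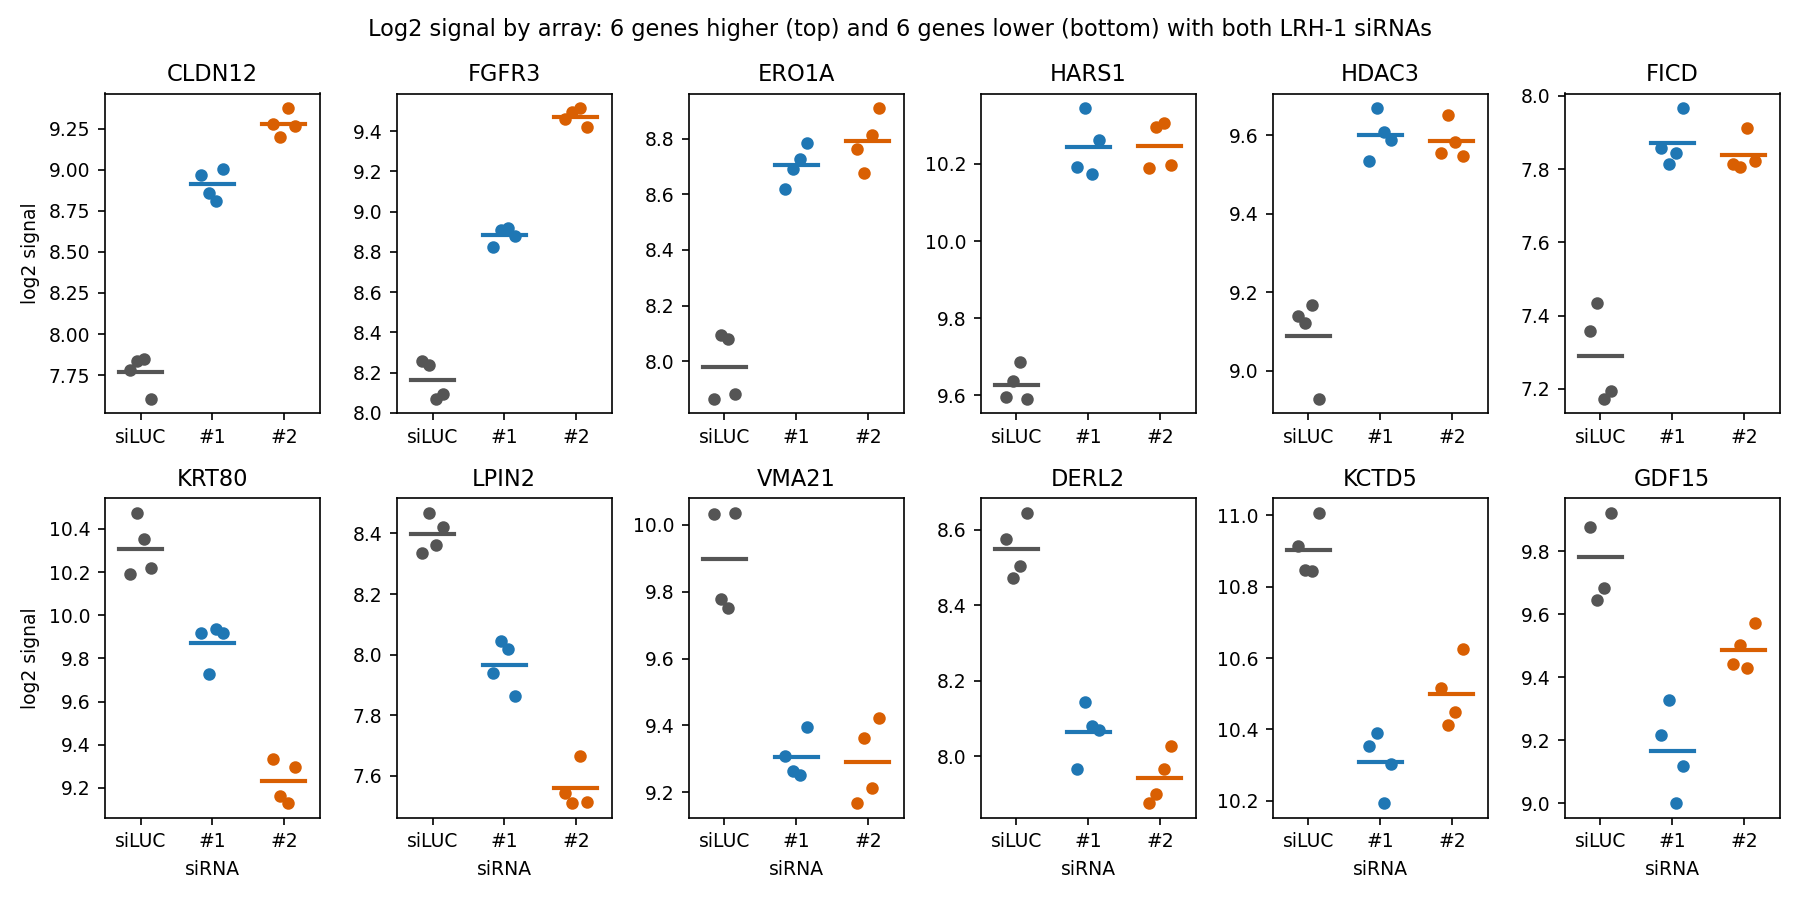
Log2 signal on each of the 12 arrays for 6 genes that rose and 6 that fell, 1 point an array, with a bar at the mean of each siRNA (siLUC grey, siLRH-1 #1 blue, siLRH-1 #2 orange). For each of the 12 genes, siLUC does not overlap the LRH-1 siRNAs. Several genes also split siLRH-1 #1 from siLRH-1 #2 without overlap, for example KRT80, LPIN2, GDF15, KCTD5, FGFR3 and CLDN12.

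The ER folds secreted and membrane proteins, and when unfolded proteins collect there, the sensors IRE1, PERK and ATF6 raise chaperones and the machinery that returns misfolded proteins to the cytosol for degradation. Of 24 measured genes of the unfolded protein response and ER chaperones, 5 rose and 0 fell. The median pooled change of the list was 0.082, against 0.006 over all genes, and 21 of the 24 had a change above 0. PDIA4 and WFS1, on the same list, had no named probe, and the study lists both as higher in HT29 cells with both siRNAs. Of 11 measured genes of ER-associated degradation, 5 rose and 1 fell (median 0.067), and the increases numbered 3 without siLUC replicate 3 and 3 without siLUC replicate 4. Of all genes 4.80% rose, 3.67% fell and 52.6% had a change above 0, and each list count here and below stands against these shares. The shares were not matched for signal, and most probes of the shared response were bright. A measured gene is one with a named probe among the values used, and listed genes without one were not assessed. In several lists, some of those are genes that the study lists as changed in HT29 cells with both siRNAs. The list counts are incomplete to that extent. The lists were chosen with earlier results of these arrays known.

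ERO1A, the oxidase that regenerates disulfide bonds through protein disulfide isomerase, read 7.87, 8.09, 8.08 and 7.88 with siLUC and 8.62 to 8.91 (median 8.75) with the LRH-1 siRNAs. It rose 1.70-fold (log2 change 0.77, SE 0.06, adjusted p = 4.21e-08), with no overlap between the groups and no difference called between the siRNAs (adjusted p = 0.537). FICD, the ER enzyme that adds AMP to the chaperone BiP and removes it, read 7.36, 7.44, 7.17 and 7.19 against 7.81 to 7.97 (median 7.83). FICD rose by 0.56 (SE 0.06, adjusted p = 1.24e-06), by 0.58 and 0.55 with the single siRNAs. HERPUD2, a relative of the ER stress protein HERP, rose by 0.55 (adjusted p = 2.5e-05), CNPY2 by 0.24 (adjusted p = 0.00599) and the site-1 protease MBTPS1, which cuts ATF6, by 0.21 (adjusted p = 0.0226). MBTPS1 was called with siLRH-1 #1 only and lost its pooled call when some single arrays were left out (adjusted p up to 0.0842).

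HSPA5 and HSP90B1, which encode the major chaperones BiP and GRP94, were not called. HSPA5 had a pooled change of 0.14 (SE 0.05, adjusted p = 0.113), although all 8 of its arrays lay above the controls, and HSP90B1 had one of 0.05 (adjusted p = 0.663). DNAJB9, a co-chaperone and a standard target of the IRE1 arm, rose with siLRH-1 #1 (0.43, adjusted p = 0.000571) and fell with siLRH-1 #2 (-0.28, adjusted p = 0.0244), so that its pooled change was 0.08 (adjusted p = 0.588). CANX, the membrane lectin calnexin, had a pooled call of -0.21 (adjusted p = 0.0465) but fell with siLRH-1 #1 only (-0.52), with 0.09 under siLRH-1 #2, and so lay outside the shared response. Of 21 listed targets of ATF4, the transcription factor of the PERK arm, 9 were measured. Of these, 0 rose and 1 fell (median 0.033). That gene was DDIT4, an inhibitor of mTORC1, which fell by 0.28 (SE 0.06, adjusted p = 0.00884) and was not called without moderation of the spread (adjusted p = 0.0558). SLC7A11, on the same list, had no named probe, and the study lists it as higher in HT29 cells with both siRNAs.

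In ER-associated degradation, ERLEC1, a lectin that recognises trimmed glycans on misfolded proteins, read 9.97, 10.10, 10.08 and 10.16 with siLUC and 10.35 to 10.69 (median 10.53) with the LRH-1 siRNAs. It rose by 0.46 (SE 0.05, adjusted p = 1.02e-05) without overlap. The membrane ligase MARCHF6 rose by 0.28 (adjusted p = 0.00488) with both siRNAs called. EDEM1 (0.37), which trims mannose from misfolded glycoproteins, was called with siLRH-1 #1 only (0.56 against 0.17, adjusted p = 0.12), EDEM3 (0.24) with siLRH-1 #2 only and FAF2 (0.24), which recruits the p97 ATPase, with siLRH-1 #1 only. EDEM3 and FAF2 lost the pooled call when some single arrays were left out (adjusted p up to 0.0845 and 0.117). DERL2, a channel component of the same pathway, moved the other way. Its signal was 8.57, 8.47, 8.50 and 8.64 with siLUC and 7.88 to 8.14 (median 8.00) with the LRH-1 siRNAs, a decrease of 0.55 (SE 0.05, adjusted p = 9.28e-07), and the other DERL2 probe did not pass. The mean of the DERL2 probes fell by 0.28 (adjusted p = 0.00131).

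**Figure D3:**
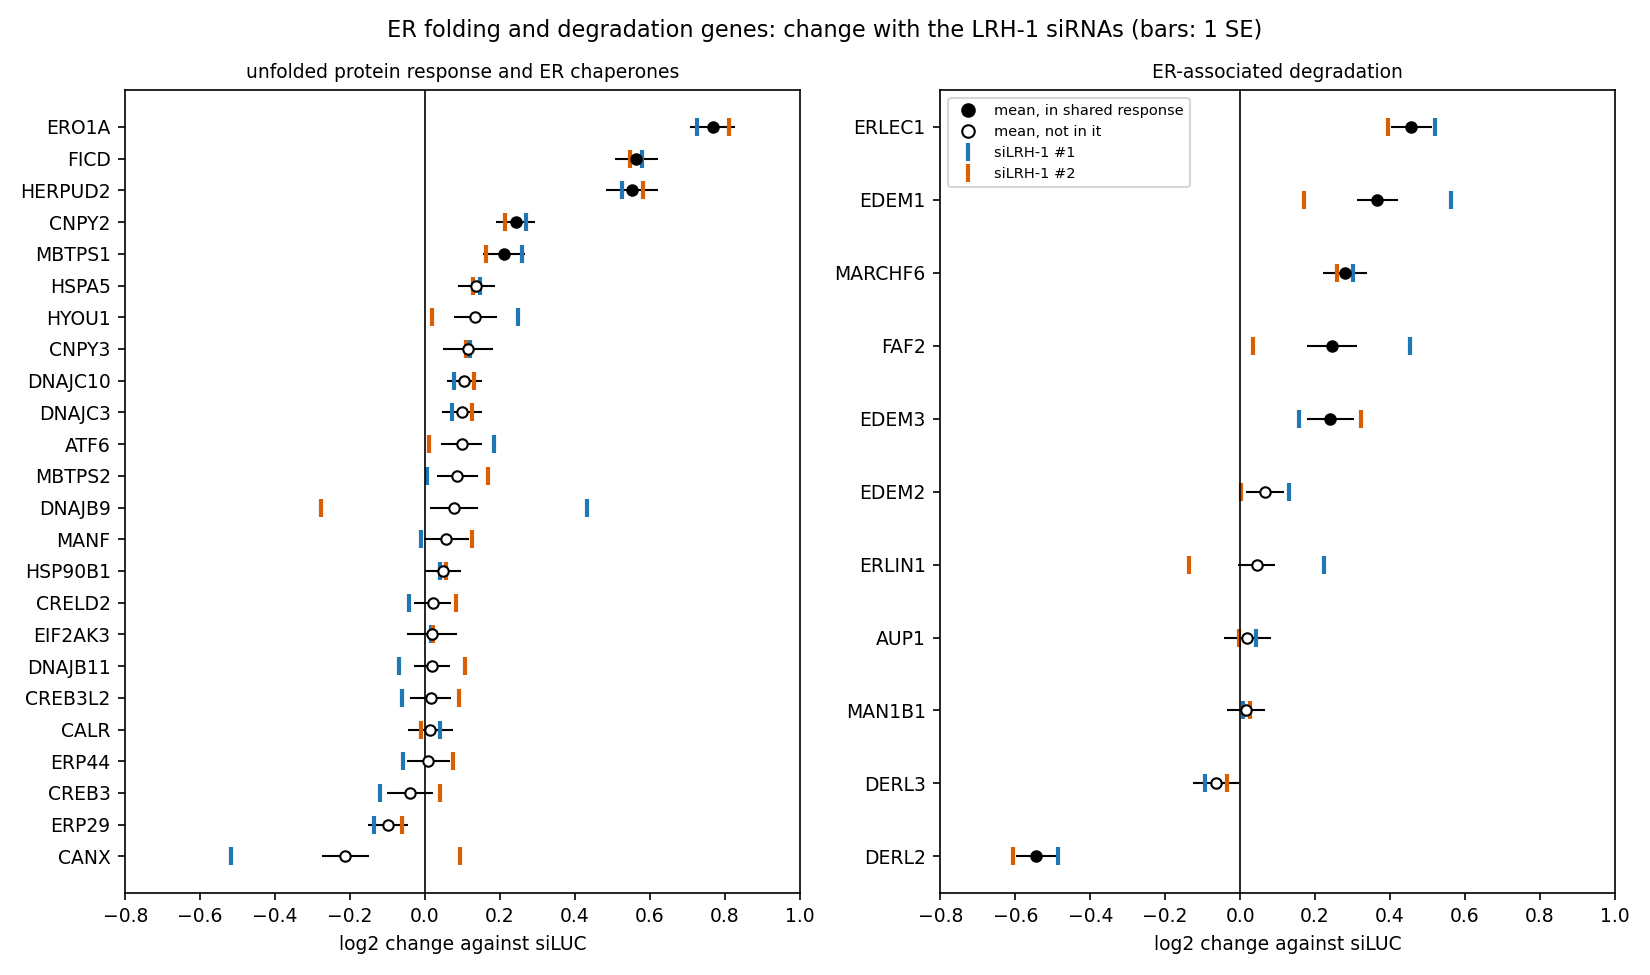
Log2 change against siLUC of the 24 measured genes of the unfolded protein response and ER chaperones (left) and the 11 of ER-associated degradation (right). Circles are the pooled change with 1 SE, filled for the shared response, and ticks are the single siRNAs. ERO1A, FICD and HERPUD2 stand apart from the chaperones, DERL2 is the 1 filled point below 0, and DNAJB9 splits between the siRNAs.

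Promoters of the shared response were searched for the LRH-1 motif, CAAGGTCA or CAAGGCCA, and for the ER stress element, CCAAT and then 9 bases and then CCACG, which ATF6 binds with the factor NF-Y. Both motifs were searched on both strands of the 250 bases before each gene's start (RefSeq, GRCh38.p14). Promoters matched 5805 of the 7331 genes. The LRH-1 motif was in 10 of 520 promoters of the shared response (1.92%), in 2 of 114 of genes that rose with each siRNA (1.75%) and in 1 of 50 of those that fell (2%), against 2.03% of the measured genes and 2.57% of all 27305 promoters. The ER stress element was in 2 promoters of the shared response (0.385%), FICD and ALG12, against 0.138% of the measured genes and 0.0806% of all promoters. ALG12, a mannosyltransferase of N-glycan assembly in the ER, rose by 0.21 (adjusted p = 0.044) and was called with siLRH-1 #1 only. The promoters of FICD (chr12:108515027-108515276, plus strand) and ALG12 (chr22:49918439-49918688, minus strand) are shown for the ER stress element. Those of AASDHPPT (chr11:106077412-106077661, plus strand), of the giant HECT ligase HERC2 (chr15:28322180-28322429, minus strand) and of PACRGL (chr4:20696032-20696281, plus strand) are the 3 with the LRH-1 motif among genes called with each siRNA, which in all 3 reads on the opposite strand. Each runs 5′ to 3′ along the gene and ends at the base before its start, with the bases of the motif in capitals.
FICD: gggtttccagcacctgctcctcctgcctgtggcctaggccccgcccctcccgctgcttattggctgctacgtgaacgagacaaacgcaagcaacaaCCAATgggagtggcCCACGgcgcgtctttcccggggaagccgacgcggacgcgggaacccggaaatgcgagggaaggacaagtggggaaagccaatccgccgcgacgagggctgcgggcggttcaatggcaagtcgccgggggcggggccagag
ALG12: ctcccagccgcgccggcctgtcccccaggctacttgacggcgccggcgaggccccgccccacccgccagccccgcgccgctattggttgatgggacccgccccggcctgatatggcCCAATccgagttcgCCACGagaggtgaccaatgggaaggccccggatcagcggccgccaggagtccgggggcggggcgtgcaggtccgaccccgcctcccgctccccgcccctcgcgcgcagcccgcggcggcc
AASDHPPT: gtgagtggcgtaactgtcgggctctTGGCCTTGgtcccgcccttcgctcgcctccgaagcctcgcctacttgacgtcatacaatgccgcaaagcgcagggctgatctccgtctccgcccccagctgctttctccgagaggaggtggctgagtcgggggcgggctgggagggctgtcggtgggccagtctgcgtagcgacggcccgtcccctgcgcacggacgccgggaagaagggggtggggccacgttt
HERC2: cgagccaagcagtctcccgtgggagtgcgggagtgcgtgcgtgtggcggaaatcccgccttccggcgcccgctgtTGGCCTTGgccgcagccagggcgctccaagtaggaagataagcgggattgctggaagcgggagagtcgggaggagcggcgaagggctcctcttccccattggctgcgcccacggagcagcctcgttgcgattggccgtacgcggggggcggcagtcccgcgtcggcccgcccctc
PACRGL: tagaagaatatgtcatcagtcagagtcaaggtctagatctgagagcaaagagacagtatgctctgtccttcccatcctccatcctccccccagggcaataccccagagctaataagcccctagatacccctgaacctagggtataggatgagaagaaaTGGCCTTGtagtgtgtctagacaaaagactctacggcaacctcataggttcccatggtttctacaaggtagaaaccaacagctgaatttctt
The match is one of letters and does not show binding. The LRH-1 motif as searched leaves out the first base, a pyrimidine, of the consensus the study gives, and fixes the last as A. In PACRGL the base at that first position is not a pyrimidine. AASDHPPT rose by 0.55, HERC2 rose by 0.23 (adjusted p = 0.00584) and PACRGL fell by 0.27 (adjusted p = 0.00432).

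Membrane traffic between the ER, Golgi and cell surface was covered by 2 lists. Of 29 measured genes of ER to Golgi transport 5 rose and 1 fell (median 0.028), with 17 of the 29 above 0 and 2 of the increases called with each siRNA. The increases of this list numbered 3 without siLUC replicate 1 and 2 without siLUC replicate 2. Of 32 measured genes of endosomal traffic and the exocyst, 6 rose and 1 fell (median 0.021). MCFD2, which carries clotting factors out of the ER with LMAN1, rose by 0.33 (adjusted p = 0.000821), and the Golgi protein GOLIM4 by 0.25 (adjusted p = 0.00292). As the mean of all probes of the gene, MCFD2 rose by 0.22 and GOLIM4 by 0.16, both still called. The coat subunits COPB1 (0.21) and COPG2 (0.20) and the small GTPase ARF4 (0.19) were each called with 1 siRNA only, and none of these 3 kept its call whichever array was left out. ERGIC2 fell by 0.32 in the pooled change, by 0.53 with siLRH-1 #1 and with no call for siLRH-1 #2 (-0.11, adjusted p = 0.488). At the plasma membrane, EXOC2 and EXOC5, subunits of the exocyst that tethers secretory vesicles, rose by 0.32 and 0.28 (adjusted p = 0.000178 and 0.00303). EXOC2 was even among the controls, at 7.38, 7.40, 7.39 and 7.40, and read 7.64 to 7.85 with the LRH-1 siRNAs. The other EXOC2 probe did not pass, and the mean of the EXOC2 probes rose by 0.24. The clathrin adaptor subunit AP2M1 (0.22), the cargo receptor IGF2R (0.25) and the actin adaptor CD2AP (0.35) rose with each siRNA, and CLTA, a clathrin light chain, fell with each (-0.31, adjusted p = 0.00363). Among the 26 measured genes of the lysosome list, the proton pump subunit ATP6V1D (0.34) and the protease CTSZ (0.26) rose, and VMA21 alone fell. NPC1, OSTM1 and TMEM106B of this list had no named probe, and the study lists all of them as higher in HT29 cells with both siRNAs.

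Glycosylation and GPI anchor genes changed in both directions. Of 34 measured, 7 rose and 3 fell (median 0.051). Those called with each siRNA were ALG5, the glucosyltransferase that loads dolichol phosphate (0.29), B4GALT6 (0.37), the chondroitin polymerising factor CHPF (0.37) and GXYLT1, a xylosyltransferase of Notch (0.40), which all rose, and the galactosyltransferase B4GALT3, which fell. B4GALT3 read 9.82, 9.82, 9.72 and 9.81 with siLUC and 9.34 to 9.50 (median 9.43) with the LRH-1 siRNAs, a decrease of 0.37 (SE 0.05, adjusted p = 3.01e-05) that did not differ between the siRNAs by the test (adjusted p = 0.49).

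Ubiquitin ligases, which mark proteins for degradation, had called genes on both sides. Of 64 measured genes of cullin-RING ligases, 7 rose and 6 fell (median -0.004), and of 16 RING, RBR and HECT ligases 3 rose and 2 fell (median 0.025). Without siLUC replicate 2 or 4, 1 of these 16 rose. FBXL5, the iron-sensing F-box protein (0.36, or 0.26 as the mean of its probes), FBXL20 (0.33) and KCTD20 (0.31) rose with each siRNA, and KCTD5 fell. CUL4A (-0.39) and COPS5, the catalytic subunit of the COP9 signalosome (-0.27), were called with siLRH-1 #1 only. ARIH2, an RBR ligase that works with cullin 5, fell by 0.25 with both called.

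Of 17 genes that the study discusses, 9 were measured here, and 0 of the 9 were called in the pooled change. The others, among them CCNE2, had no named probe and were not assessed. The study lists CCNE2 as higher in HT29 cells with both siRNAs. CDKN1A, which encodes the CDK inhibitor p21, read 8.37, 8.17, 7.98 and 8.31 with siLUC and 8.07 to 9.20, with a median of 8.34, with the LRH-1 siRNAs. The groups overlapped, the pooled change was 0.22 (SE 0.12, adjusted p = 0.337), and the highest value, 9.20, came from siLRH-1 #2 replicate 2, without which the change was 0.12 (adjusted p = 0.435). The pooled change was 0.17 for CCND1 (adjusted p = 0.077), -0.16 for MYC (adjusted p = 0.0955), -0.03 for CCNE1 (adjusted p = 0.82), 0.06 for CCNB1, 0.04 for CCNB2, 0.07 for MDM2, -0.05 for BAX and -0.06 for CYP11A1. CCND1 and MYC were each called with 1 siRNA alone (0.26 with siLRH-1 #1 and -0.29 with siLRH-1 #2). Both also passed in the pooled change when the spread was fitted against signal (adjusted p = 0.0283 and 0.0363) and among the brighter probes alone (0.0311 and 0.0401). Of 11 measured p53 targets, 0 were in the shared response (median 0.028).

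Other cell cycle genes did change. Among 37 measured genes that act in G1/S or in DNA replication, 4 rose and 4 fell (median -0.034). All 4 that rose were E2F factors: E2F5, E2F6 (0.34, adjusted p = 0.000215) and E2F3 (0.25, adjusted p = 0.00219) with each siRNA, and E2F4 (0.21, adjusted p = 0.0256) with siLRH-1 #1 alone. CDC25A, the phosphatase that activates CDK2, read 9.85, 9.76, 9.82 and 9.71 with siLUC and 9.37 to 9.48 (median 9.44) with the LRH-1 siRNAs. It fell by 0.36 (SE 0.05, adjusted p = 5.94e-05), by 0.35 and 0.37 with the single siRNAs. The checkpoint kinase CHEK1 fell by 0.25 (adjusted p = 0.00441) and LIN9, a subunit of the MuvB complex, by 0.20 (adjusted p = 0.0184), both with each siRNA. Of 44 measured mitosis genes, 6 rose and 0 fell (median 0.068), CDK1, KIF23, CENPF, ECT2, ASPM and ARHGAP11A, with changes of 0.18 to 0.22. None of these 6 was called with siLRH-1 #1 alone, and 0 kept the pooled call whichever array was left out: with single arrays left out, the mitosis genes that rose numbered 1 to 7, with 1 without siLUC replicate 3, 2 without siLUC replicate 2, and 3 without siLUC replicate 1, siLUC replicate 4 or siLRH-1 #2 replicate 1.

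Epithelial genes came next. Of 25 measured genes of cell-cell junctions, 4 rose and 0 fell (median 0.05): CLDN12, the virus receptor and junction protein CXADR (0.29, adjusted p = 0.000781), and CLDN7 (0.23) and CRB3 (0.24), both called with siLRH-1 #2 only. Without single arrays, up to 2 junction genes fell. Of 24 genes of colon differentiation, 2 rose and 5 fell (median -0.006). CD24, a mucin-like surface protein, read 12.95, 12.92, 12.78 and 12.82 with siLUC and 12.39 to 12.66 (median 12.61) with the LRH-1 siRNAs, and fell by 0.31 (SE 0.05, adjusted p = 0.000733). The surface antigen CEACAM5 (-0.22, adjusted p = 0.0166), the epithelial factor ELF3 (-0.21, adjusted p = 0.0118) and GRHL3 (-0.28, adjusted p = 0.00331, or -0.19 as the mean of its probes) fell with each siRNA. CEACAM5 and ELF3 lost the call when some single arrays were left out, and the decreases in the list numbered 2 without siLUC replicate 4 and 3 without siLUC replicate 2 or 3. GAL3ST1, the sulfotransferase that makes sulfatide, rose by 0.41 (adjusted p = 0.000178) from a dim 5.91 to 6.15 in the controls. Of 10 keratins, KRT80 fell and KRT24 rose (0.20, adjusted p = 0.0141), the latter called with siLRH-1 #2 only.

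Genes of the crypt and of chromatin were also listed. Of 15 Wnt targets and stem cell genes, 3 rose and 2 fell (median 0.09). ASCL2, the transcription factor of crypt stem cells, read 8.27, 8.43, 8.30 and 8.34 with siLUC and 8.63 to 8.82 (median 8.67) with the LRH-1 siRNAs. It rose by 0.35 (SE 0.05, adjusted p = 0.000177), by 0.34 and 0.36 with the single siRNAs. BMI1, a Polycomb protein counted in both the Wnt and Polycomb lists, rose by 0.33 (adjusted p = 0.000242). Of 20 Polycomb and COMPASS genes 4 rose and 1 fell (median 0.003), with E2F6 and BMI1 higher and ASH2L, a core subunit of the H3K4 methyltransferases, lower (-0.24) with each siRNA. Of 32 genes of remodelling and co-repressor complexes 3 rose and 2 fell (median -0.007), among them HDAC3 and the nuclear receptor corepressor LCOR (0.33, adjusted p = 0.00187), which rose with each siRNA. SMARCD1, RUVBL1 and SS18L1 of this list had no named probe. The study lists SMARCD1 and RUVBL1 as lower and SS18L1 as higher in HT29 cells with both siRNAs. Of 23 histone genes, 0 rose and 4 fell (median -0.023), and H2AC6 (-0.34, adjusted p = 0.000212) was the 1 called with each siRNA. Without siLUC replicate 2, 3 or 4, 2 histone genes fell.

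Few known targets of LRH-1 were measured. Of 31 listed, 9 had a named probe, and 1 was in the shared response, ABCC3, an exporter of bile salts and conjugates that also stands in the NRF2 list. Its signal was 11.10, 10.94, 11.03 and 11.17 with siLUC and 10.30 to 11.11, with a median of 10.60, with the LRH-1 siRNAs. The ranges overlapped, and its pooled change of -0.40 (SE 0.06, adjusted p = 0.000267) came from siLRH-1 #1 (-0.71), while siLRH-1 #2 gave -0.08 (adjusted p = 0.583). Of 12 NRF2 targets 3 rose and 1 fell (median 0.097), and MAFG, the small Maf partner of NRF2, rose with each siRNA (0.37, adjusted p = 9.69e-05). Of the 3 increases 1 was left, MAFG, without siLUC replicate 2, 3 or 4, siLRH-1 #1 replicate 4 or siLRH-1 #2 replicate 1. SRXN1 and TXNRD1 of the NRF2 list had no named probe, and the study lists both as higher in HT29 cells with both siRNAs. Of 13 genes of cholesterol synthesis and uptake 2 rose and 2 fell (median -0.02). HMGCS1, the cytosolic synthase that feeds the mevalonate pathway, rose with each siRNA (0.41, SE 0.06, adjusted p = 0.000149), whereas INSIG2, FDPS and DHCR7 were each called with 1 siRNA only. FDPS fell with siLRH-1 #1 (-0.57) and read -0.06 with siLRH-1 #2, and DHCR7 fell with siLRH-1 #2 (-0.54) and read -0.01 with siLRH-1 #1.

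In the remaining lists, 4 of 25 genes of EGF and FGF receptor signalling rose and 3 fell (median 0.021). Beside FGFR3, the phosphatase DUSP8 rose with each siRNA (0.24, adjusted p = 0.00945), while the EGF receptor ligand HBEGF (0.26) and the AP-1 factor FOSL1 (-0.27) passed on 1 siRNA. Of 23 genes of mitochondrial import and quality control 3 rose and 2 fell (median -0.003), all 5 with each siRNA: DNAJC19 (0.22), MTX3 (0.33) and the inner membrane peptidase IMMP2L (0.32) higher, and the protease HTRA2 (-0.35) and MSTO1 lower. Of 19 hypoxia and glycolysis genes 4 rose and 1 fell (median -0.004), with ERO1A and the peptide hormone ADM (0.25, adjusted p = 0.00211) higher and DDIT4 lower with each siRNA, of which ERO1A and DDIT4 also stand in the ER lists. Without siLUC replicate 1 or 2, 2 of the hypoxia genes rose. HARS1 was the 1 called gene of 10 cytosolic tRNA synthetases (median 0.043). Of 16 interferon response genes 1 rose, the RNA sensor IFIH1 (0.24, adjusted p = 0.00999), with siLRH-1 #2 only (median 0.062). Of 25 listed selenoprotein genes 5 were measured, and 0 of the 5 were in the shared response (median 0.026). TXNRD1, SECISBP2L and SELENOT had no named probe, and the study lists all of them as higher in HT29 cells with both siRNAs.

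**Figure D4:**
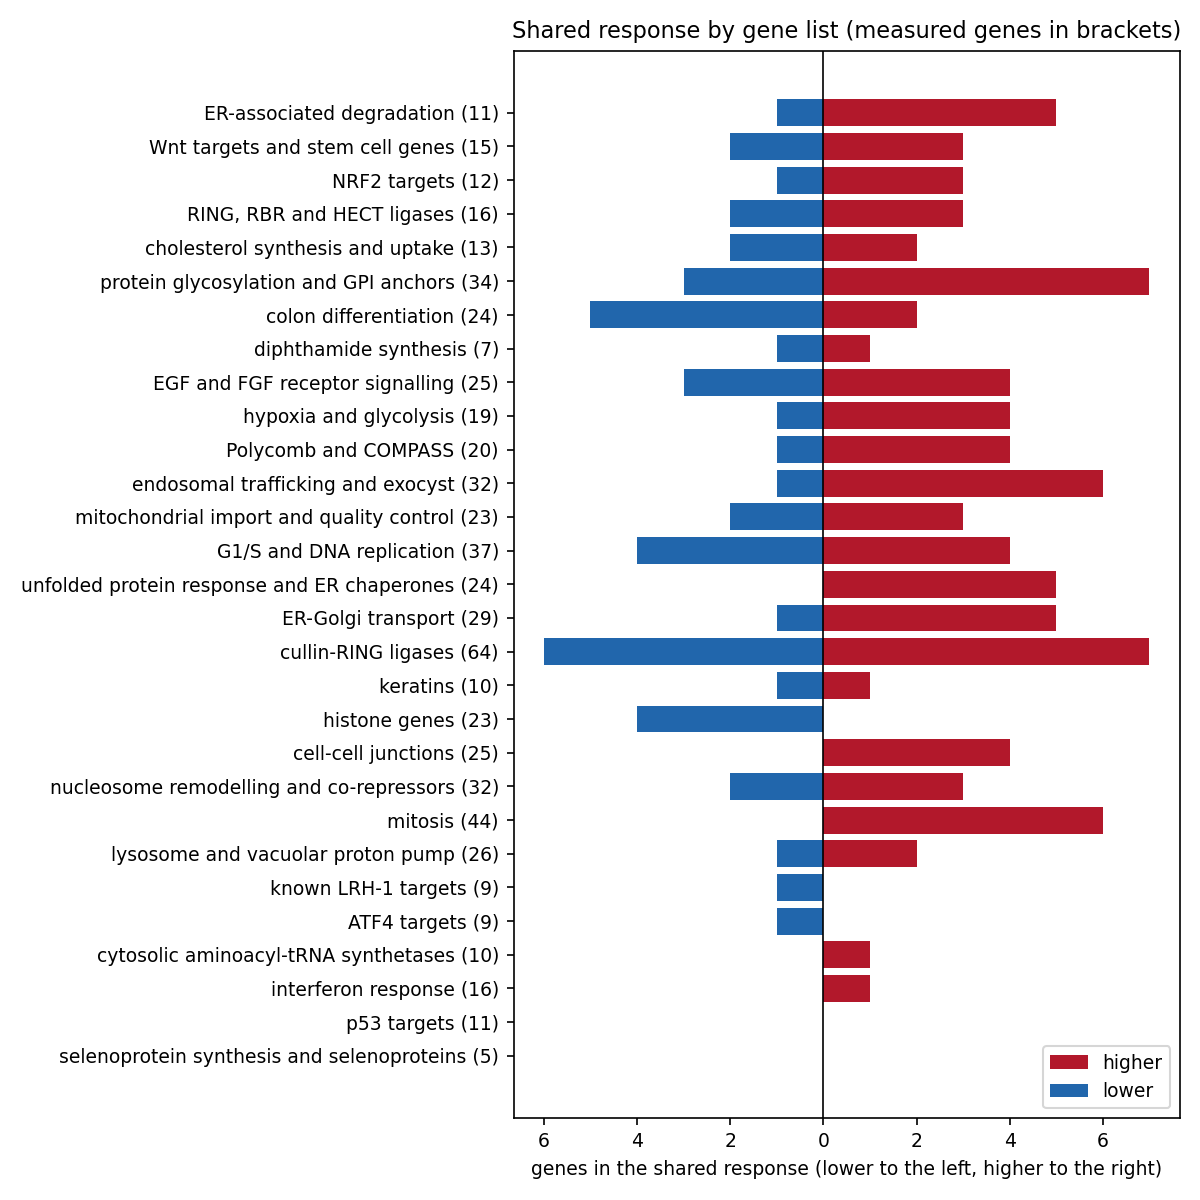
Number of genes of each of 29 lists in the shared response (horizontal axis, decreases to the left and increases to the right), ordered by the share of measured genes, which stand in brackets. ER-associated degradation has 6 of 11 genes in the shared response, 5 of them higher, against 4.80% of all genes higher and 3.67% lower.

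The pooled change also passed the test for genes that the same-sign rule left out. FAM3C, a secreted protein, read 8.94, 8.80, 8.75 and 8.94 with siLUC and spread from 7.21 to 9.52 with the LRH-1 siRNAs. It fell with siLRH-1 #1 (-1.32, adjusted p = 7.04e-08) and rose with siLRH-1 #2 (0.42, adjusted p = 0.0187), which left a pooled change of -0.45 (adjusted p = 0.00464). The membrane traffic protein MAL2 (-0.95 and 0.03) and PROSER1 (0.19 and -1.13) also had negative pooled calls made by 1 siRNA. SMIM13 (0.62 and -0.01), the vasoconstrictor peptide EDN1 (0.70 and -0.20) and the mitochondrial calcium channel subunit MCUB (-0.01 and 0.44) had positive ones, and these 3 lost the call when some single arrays were left out. At the edge of the shared response, the calcium-dependent membrane protein ANXA4 was just inside (-0.22, adjusted p = 0.04997) and the protease subunit CAPN2 just outside (0.16, adjusted p = 0.0503).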

How the data were processed

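Total RNA of HT29 cells was profiled on 12 arrays, with groups and replicate numbers from the titles. The study describes the 4 arrays of a group as independent biological replicates. Per the study's methods, the authors pre-processed bead images in GenomeStudio, dropped probes that no sample detected (detection p above 0.05), and then applied a log2 transformation and quantile normalization in Partek. Both tools are also named in the submitters' processing notes, without versions. The deposited values are therefore log2 signals. No source used here says whether arrays of another cell line were normalized with them. A table of raw signals with 24 columns that no label maps to a sample was not used, and the fit planned from it was not run.

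Probes were named through the platform annotation: 9756 had 1 gene symbol, 4 several and 6621 none, and 9746 gene IDs matched RefSeq (GRCh38.p14). A gene was represented by its probe with the highest mean signal, and 1869 genes had more than 1 probe. Of the 205 shared genes with several probes, 78 had another probe called in the same direction and 1 in the opposite direction. A mean for each of the 3 groups was fitted with limma 3.58.1 in R 4.3.3 (lmFit, contrasts, eBayes, with 9 residual and 12.1 prior degrees of freedom), two-sided, with Benjamini-Hochberg adjustment over 16381 probes for each contrast. The median SE of the pooled change was 0.059. The number of arrays limits the precision. The fit was tested on simulated data with known changes.

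The text names, with 1 probe a gene, 15 genes a direction, those of largest pooled change called in the pooled change and with each siRNA, without overlap of arrays and called without each array in turn. It also names up to 4 genes a list that were called without each array in turn, other called members of the lists, the 3 largest opposite-sign calls in each direction, the genes the study discusses, and the genes next to the threshold. HSPA5, HSP90B1, DNAJB9, CANX, ALG12 and PACRGL were named after their values were seen. Members and the 29 lists were chosen with earlier results of these data known. Alternatives covered the replicate block, moderation, a spread fitted against signal, array weights, normalization, dim probes, the definition of a shared call, other probes of a gene and each array left out.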

Additional observations from a re-analysis of the deposited data

Results flagged for a closer look

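Of 303 groups of 4 arrays, for 101 genes named by rule, 20 (6.6%) held 1 array whose gap to the others passed Dixon's limit, where chance gives about 1 in 20. In log2 signal, the low arrays were GULP1 at 7.07 on siLRH-1 #2 replicate 3 (the other 3 at 7.11 to 7.12), KRT80 at 9.73 on siLRH-1 #1 replicate 2 (9.92 to 9.93), CAPRIN2 at 9.04 on siLRH-1 #2 replicate 4 (9.22 to 9.26), ERLEC1 at 10.35 on siLRH-1 #2 replicate 4 (10.5 to 10.53), ERGIC2 at 8.17 on siLRH-1 #1 replicate 4 (8.42 to 8.47) and GXYLT1 at 8.27 on siLRH-1 #1 replicate 2 (8.48 to 8.5). Also low were B4GALT3 at 9.72 on siLUC replicate 3, HERC2 at 7.73 on siLRH-1 #1 replicate 2, DPH5 at 8.55 on siLRH-1 #2 replicate 3, CCND3 at 9.43 (9.9 to 9.94) and HTRA2 at 7.83, both on siLRH-1 #1 replicate 4, PROSER1 at 9.51 on siLUC replicate 1 and CYP11A1 at 6.16 on siLRH-1 #2 replicate 1. The high arrays were CDKN1A at 9.20 on siLRH-1 #2 replicate 2 (8.33 to 8.37), FICD at 7.91 and MARCHF6 at 10.98 (10.77 to 10.79), both on siLRH-1 #2 replicate 3, C1orf116 at 9.81 on siLRH-1 #2 replicate 1, CLDN7 at 10.89 on siLRH-1 #1 replicate 2, E2F6 at 9.63 on siLUC replicate 2 and EDN1 at 8.17 on siLRH-1 #1 replicate 4. The array that stood apart in 50 probes, siLRH-1 #2 replicate 2, gave 1 of the 20.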

How the results depend on the processing

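The number of arrays limits these counts. With 1 array left out, the pooled calls numbered 696 to 1035 (332 to 493 higher and 359 to 542 lower), the shared response 648 to 961 probes (331 to 490 higher and 312 to 471 lower), the probes called with each siRNA 198 to 273 (134 to 182 higher and 64 to 91 lower) and the calls between the siRNAs 1184 to 1619. Without siLUC replicate 4, 696 pooled calls were made, 359 of them lower, and 67 probes were lower with each siRNA. Without siLRH-1 #1 replicate 4 the last count was 64, and without siLUC replicate 1 the increases numbered 332, and 331 in the shared response. Of the 287 probes called with each siRNA, 256 kept the pooled call and its sign whichever array was left out.

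Taking the larger p of the siRNAs for each probe, adjusted over all probes, gave a shared response of 131 probes (98 higher and 33 lower) in place of 956. Among the brighter probes alone, 434 probes were called with each siRNA, of which 169 were lower. The replicate block gave 957 pooled calls, 866 shared probes and 250 called with each siRNA, and changed the call of none of the 90 genes named by rule for their pooled call and away from the threshold. The numbers did not pair the arrays: the deviations of the 12 same-numbered pairs correlated between -0.151 and 0.204, 2 of them above 0.1, and 2 arrays were closest to their own number. Without moderation 5 of the 90 genes were not called, DDIT4, FDPS, SMIM13, EDN1 and FAM3C. The CCNE1 change, -0.03, was 0.0011 without siLUC replicate 1, and its range over single arrays left out was -0.0546 to 0.0011. ANXA4 and CAPN2, next to the threshold, crossed it under several settings. A fit from the raw signals (neqc) was not run.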
